A study of Mus musculus with 2 samples.

Results

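The set comprised 9 genes of the 27998 in the deposited matrices: Ccl24, Npl, Acp5, Olfml3, H2-M2, Htra1, Cela1, Ccl6 and Ccl9. They were chosen by their measured values, namely the levels and the co-detection seen earlier in these same matrices, so every level and every co-detection value below is a description, and none is a test. All 9 were measured in both libraries and all 9 had a mean of at least 10 UMIs (tags that mark single RNA molecules) per 1000000 (CPM), the level used for comparison with other genes.

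The cells were macrophages of the mouse small intestine, profiled by 10x Genomics 3′ v2 droplet sequencing, which counts unique molecular identifiers (UMIs). The groups were 1 wild-type (WT) library, from male C57BL/6J mice of the supplier Janvier, and 1 CCR2-/- library, from a JAX strain bred in-house. Genotype and source of the animals therefore cannot be told apart, and the age of the animals is not given in the sources used here. Each library pooled 3 to 4 intestines from which mucus and epithelium had been removed before Liberase TL digestion, and both were sorted as live CD45+ cells, negative for CD3, TCRb, B220, SiglecF, Ly6C and Ly6G and positive for CD11b, MHCII and CD64. The WT cells had been divided between 2 lanes, so the lanes show the technical spread only and are no replicates.

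Macrophages of the gut wall are largely replaced from blood monocytes, whose release from the marrow depends on the chemokine receptor Ccr2. A longer-lived fraction carries Timd4, a receptor for phosphatidylserine on dying cells. Ccl24 (eotaxin-2) is a chemokine that attracts eosinophils through the receptor Ccr3, Npl (N-acetylneuraminate pyruvate lyase) breaks down sialic acid, and Acp5 is the tartrate-resistant acid phosphatase known from osteoclasts and some tissue macrophages.

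After cells with under 200 detected genes or over 10% mitochondrial UMIs were removed, 3016 WT cells (2109 in lane 1 and 907 in lane 2) and 2612 CCR2-/- cells were kept. Median depth was 6129 UMIs per WT cell and 2439 per CCR2-/- cell, so comparisons of single cells were made after each cell had been thinned at random to 1000 UMIs, which left 3015 WT and 2416 CCR2-/- cells. The lanes shared 5 barcode sequences, and lane 1 shared 6 with the CCR2-/- library. Ccr2 itself was at 331 CPM in WT and 6.88 CPM in CCR2-/-, and 1.15% of the unthinned CCR2-/- cells still had a UMI of it. Other cell types were checked from marker lists. Cells with lymphoid markers and no UMI of the macrophage genes Csf1r and Adgre1 numbered 12 in WT and 22 in CCR2-/-. Cells with stromal markers, by the same rule, numbered 1 and 21. A further 164 WT cells (5.44%) and 62 CCR2-/- cells (2.37%) had a Csf1r or Adgre1 UMI beside markers of a type other than macrophages or monocytes. The summed level of 7 fibroblast markers was 29.8 CPM in WT and 263.4 CPM in CCR2-/-. With 1 library per genotype there is no estimate of the spread between animals, and the 95% intervals given (exact Poisson for levels, Clopper-Pearson for shares) cover counting error only. So do the intervals of log2 ratios, which are exact intervals for the ratio of 2 Poisson counts with nothing added to the counts.

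Ccl24, H2-M2 and Cela1 were higher in CCR2-/-, Ccl6 and Ccl9 were lower, and Npl, Acp5, Olfml3 and Htra1 lay between. By a limit of 2-fold, 1 of the 9 genes was higher in CCR2-/-, against 9.04% of the 7401 genes with a mean of at least 10 CPM, and 0 were lower, against 3.12%. By a limit of 1.5-fold, 3 were higher (all genes 23.6%) and 2 were lower (all genes 12.5%). The median log2 ratio of the 9 genes was -0.02, against 0.18 for all genes (SD across genes 0.69). No member differed by 1.5-fold or more between the WT lanes, against 7.47% of all genes, but the median log2 ratio of lane 2 to lane 1 was 0.33 for the 9 genes and -0.07 for all genes. In bulk sums such as these, fewer cells with a transcript and less RNA per cell cannot be told apart.

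**Figure D1:**
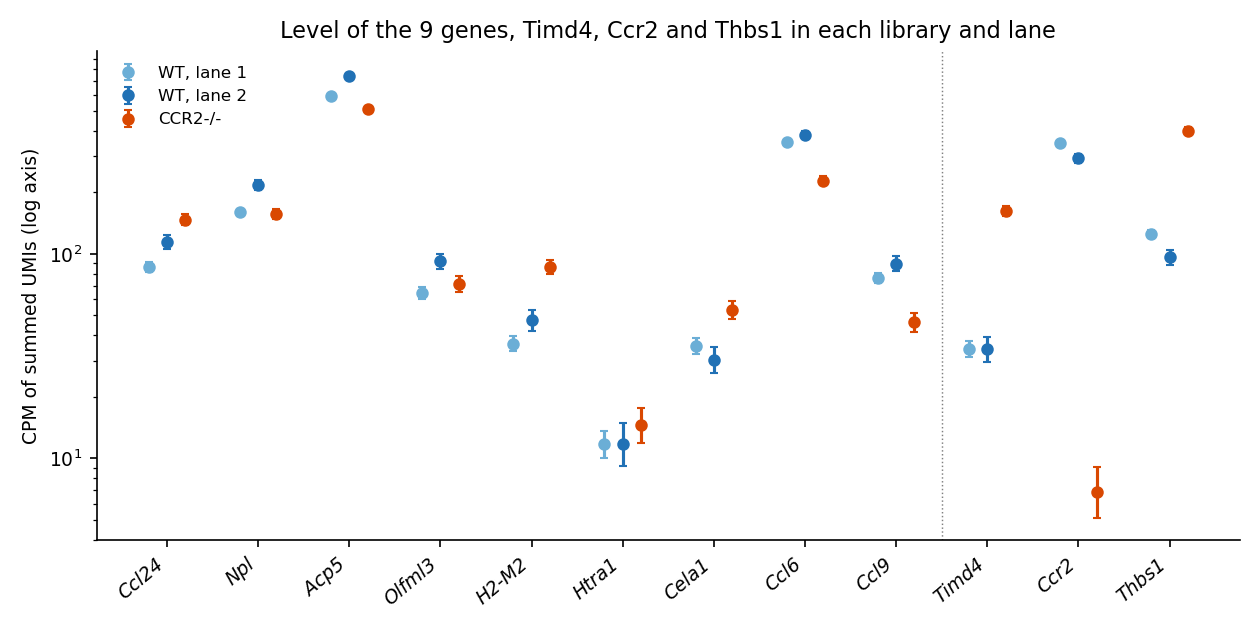
Level of each of the 9 genes and of Timd4, Ccr2 and Thbs1, as CPM of the UMIs summed over all kept cells (log axis), in WT lane 1, WT lane 2 and CCR2-/-. Bars are 95% Poisson intervals. The CCR2-/- points of Ccl24, H2-M2 and Cela1 lie above both lanes with separate intervals, those of Acp5, Ccl6 and Ccl9 lie below both with separate intervals, the Olfml3 point lies between the lanes, and the intervals of Npl and Htra1 overlap that of lane 1.

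Ccl24 was at 86.3 CPM (95% interval 81.6 to 91.2) in WT lane 1, 114.5 CPM (106.1 to 123.3) in WT lane 2 and 147.1 CPM (138.4 to 156.2) in CCR2-/-. The CCR2-/- level lay above both lanes. The log2 ratio of CCR2-/- to WT, on log2 of CPM plus 1, was 0.63 (0.53 to 0.75, an interval computed without the added 1). It was 0.76 against lane 1, 0.36 against lane 2 and 0.16 among cells of 2000 to 4000 UMIs, whose depth was alike in both libraries (medians 2940 and 2824). At 1000 UMIs per cell, 181 of 3015 WT cells (6.00%, 5.18 to 6.91) and 201 of 2416 CCR2-/- cells (8.32%, 7.25 to 9.49) had a UMI, and before thinning the shares were 14.95% and 13.67%. In both libraries a single thinned cell could hold many copies, up to 10 in WT and 9 in CCR2-/-.

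The share of cells with Ccl24 was compared with that in cells of another type, as a measure of free RNA in the droplets. Of the thinned cells with lymphoid markers, 0 of 12 in WT and 0 of 22 in CCR2-/- had a Ccl24 UMI, which allows shares of up to 25% and 13.6% at 3 counts (Clopper-Pearson upper bounds 26.46% and 15.44%). These cells had median depths of 5223 and 2213.5 UMIs before thinning. Npl, Olfml3, H2-M2, Htra1, Cela1 and Ccl9 were also at 0 in these thinned cells in both libraries. Before thinning, the same cells held 2 UMIs of Ccl24 in CCR2-/- (39.1 CPM, 4.74 to 141.4) and 0 in WT, 1 UMI of Olfml3 in WT and 1 of Cela1 in CCR2-/-. They also held 12 UMIs of Acp5 in WT (157.8 CPM, 81.6 to 275.7) and 7 in CCR2-/- (137 CPM, 55.1 to 282.3). Of Ccl6 they held 4 UMIs in WT and 1 in CCR2-/-. After thinning, Acp5 had a UMI in 3 of 12 and 3 of 22 lymphoid-marker cells, and Ccl6 in 3 of 12 and 0 of 22. The number of such cells was too small to set a background for any of the 9 genes. The part of free RNA in the Acp5 shares was not tested.

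The sialic acid lyase Npl was at 159.6 CPM in lane 1, 217.9 CPM in lane 2 and 157 CPM in CCR2-/-. Its CCR2-/- level was within the interval of lane 1 (153.2 to 166.3) and under lane 2, and the log2 ratio to WT was -0.17 (-0.27 to -0.08). A UMI of Npl was present in 15.49% (14.22 to 16.83) of thinned WT cells and in 14.57% (13.19 to 16.04) of thinned CCR2-/- cells, intervals that overlap. Of 14 other genes of sialic acid metabolism and recognition, 11 had a mean of at least 10 CPM, and none was past 2-fold in either direction (median log2 ratio 0.24). The largest ratios were those of Nans, the sialic acid synthase (48.0 CPM in WT and 25.7 in CCR2-/-, log2 ratio -0.87), Siglec1, a sialic acid-binding receptor of macrophages (11.03 and 20.9 CPM, 0.87), and Neu1, the lysosomal sialidase (56.5 and 93.5 CPM, 0.72).

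Acp5 had the highest level of the 9 genes. It was at 594.1 CPM in lane 1, 745 CPM in lane 2 and 513 CPM in CCR2-/-. The CCR2-/- level was below both lanes, with a log2 ratio of -0.32 (-0.37 to -0.26). Among cells of 2000 to 4000 UMIs, whose depth was alike, the ratio was -0.045. Acp5 was also the most widely detected, in 39.04% (37.29 to 40.81) of thinned WT cells and 34.56% (32.66 to 36.50) of thinned CCR2-/- cells. Of 12 genes known from osteoclasts or acid phosphatases, 6 had a mean of at least 10 CPM, and none was past 2-fold (median log2 ratio 0.66). The 3 with the largest ratios were Tnfrsf11a, the receptor for the osteoclast factor RANKL (55.2 CPM in WT and 103.1 in CCR2-/-, log2 ratio 0.89), Ocstamp, a membrane protein of fusing osteoclasts (62.3 and 107.5 CPM, 0.78), and Nfatc1, a transcription factor of osteoclast formation (56.8 and 94.0 CPM, 0.72). Over all kept cells, Acp5 thus lay on the other side of 0 from these 3 genes.

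Acp5 lies on the minus strand of chromosome 9 (GRCm38, chr9:22126727-22135711, GENCODE M21), and the opposite-strand gene 6530413G14Rik overlaps it. RefSeq's table (GRCm38.p6) lists 3 starts for Acp5. The stretch before the start nearest the end of the gene (chr9:22130609-22130848, minus strand, intronic in the longer transcripts) is shown because it held matches to 2 of 5 motifs searched on both strands. Of the 250 bases searched before this start, 240 are shown, since those next to the start overlap an annotated exon. Capitals mark the matches to CACATG and to TTC and GAA with any 4 bases between them.
Acp5: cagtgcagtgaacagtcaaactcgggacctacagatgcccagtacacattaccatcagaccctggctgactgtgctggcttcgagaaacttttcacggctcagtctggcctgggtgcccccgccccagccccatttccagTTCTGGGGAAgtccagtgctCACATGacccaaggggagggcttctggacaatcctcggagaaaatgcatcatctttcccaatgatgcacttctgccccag
The spaced motif was present in 5.85% and CACATG in 12.3% of the 32851 stretches of 250 bases before a start in the table. The other motifs searched were CACGTG (6.02% of all stretches), TGANTCA (6.75%) and GAGGAA (23.3%). Of the 8 members with an entry, Npl held CACGTG, Ccl9 held TGANTCA, and H2-M2, Htra1 and Cela1 each held GAGGAA. No motif was held by both of Npl and Acp5. A match is a run of letters and says nothing of binding.

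Olfml3 encodes a secreted olfactomedin-domain protein. It was at 64.6 CPM in lane 1, 91.9 CPM in lane 2 and 71.4 CPM in CCR2-/-, so that the CCR2-/- level fell within the range of the lanes (log2 ratio -0.02, -0.17 to 0.12). Among cells of 2000 to 4000 UMIs the ratio was 0.77. H2-M2, a nonclassical class I MHC gene, was at 36.4 CPM in lane 1, 47.3 CPM in lane 2 and 86.3 CPM in CCR2-/-. It was the member past 2-fold, with a log2 ratio of 1.10 (0.97 to 1.27), but among cells of 2000 to 4000 UMIs the ratio was 0.30, and against lane 2 alone it was 0.85, both under 2-fold. Its share of thinned cells was 3.52% (2.89 to 4.24) in WT and 6.87% (5.89 to 7.95) in CCR2-/-. Among 13 other class I and nonclassical MHC genes, 9 had a mean of at least 10 CPM and none was past 2-fold (median log2 ratio 0.03). The light chain gene B2m was lower in CCR2-/- (4918 and 2946 CPM, log2 ratio -0.74), and H2-Q4 (39.8 and 57.0 CPM, 0.51) and H2-Q6 (24.2 and 34.1 CPM, 0.48) were higher.

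Htra1 and Cela1 encode secreted serine proteases. Htra1 was the least abundant member, at 11.7 CPM in lane 1, 11.8 CPM in lane 2 and 14.6 CPM in CCR2-/-, and the interval of its log2 ratio of 0.29 included 0 (-0.03 to 0.65). It was also present in stromal-marker cells, with 8 UMIs (116.8 CPM) in the 21 such cells of the CCR2-/- library. Within cells that passed a macrophage marker gate its log2 ratio was 0.13. Cela1 was at 35.55 CPM in lane 1, 30.29 CPM in lane 2 and 53.1 CPM in CCR2-/-, with a log2 ratio of 0.63 (0.46 to 0.82). Among cells of 2000 to 4000 UMIs its ratio was 0.365, under 1.5-fold. No UMI of Cela1 was found in the stromal-marker cells of either library. Of 14 other proteases and matrix partners, 5 had a mean of at least 10 CPM. Mmp13, a collagenase (340.8 and 932.4 CPM, log2 ratio 1.45), and Timp2, a metalloproteinase inhibitor (27.95 and 74.7 CPM, 1.39), were higher in CCR2-/- by over 2-fold, and Mmp12, the macrophage elastase, was lower (21.2 and 5.92 CPM, -1.68).

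Ccl6 and Ccl9 are neighbouring mouse CC chemokine genes. Ccl6 was at 352.3 CPM in lane 1, 381.7 CPM in lane 2 and 228.6 CPM in CCR2-/-, and Ccl9 at 76.4, 89.6 and 46.25 CPM. Both CCR2-/- levels were below both lanes, with log2 ratios of -0.66 (-0.74 to -0.58) for Ccl6 and -0.78 (-0.97 to -0.63) for Ccl9. Ccl6 was detected in 22.79% (21.30 to 24.33) of thinned WT cells and 16.64% (15.17 to 18.19) of thinned CCR2-/- cells. For Ccl9 the shares were 5.47% (4.69 to 6.34) and 3.81% (3.08 to 4.65).

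Ccl24 on the one side and Ccl6 and Ccl9 on the other thus differed in direction, although all are CC chemokines. Of 14 other chemokine ligands and receptors, 10 had a mean of at least 10 CPM, 5 were higher in CCR2-/- by 2-fold or more and 0 lower (median log2 ratio 0.97). The 3 largest ratios were those of the Ccr2 ligand Ccl7 (186.7 CPM in WT and 1201 in CCR2-/-, log2 ratio 2.68), the inflammatory chemokine Ccl4 (769.8 and 4678 CPM, 2.60) and the Ccr2 ligand Ccl2 (157.5 and 696.2 CPM, 2.14). Ccl24's receptor gene Ccr3 was at 0.34 CPM in WT and 0.55 CPM in CCR2-/-, in cells sorted negative for the eosinophil marker SiglecF. Of 14 genes known from alternative activation, a macrophage state in which Ccl24 is often described, 11 were measured at 10 CPM or more. Egr2, a transcription factor (18.9 and 47.9 CPM, log2 ratio 1.30), and Mrc1, the mannose receptor (341.5 and 697.6 CPM, 1.03), were higher by over 2-fold, and the lectin gene Mgl2 was lower (295.1 and 145.2 CPM, -1.02).

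Whether the genes were found in the same cells was measured with the odds ratio of detection at 1000 UMIs per cell, which is 1 where a UMI of a gene is equally frequent in cells with and without the other. A single random thinning leaves few cells per pair, so odds ratios were also averaged over all possible thinnings, which gives a value without a random draw. In the single draw, 15 of the 36 pairs had an odds ratio of 1.5 or more in both libraries, and the average gave 14. Of all genes seen in at least 2% of thinned cells, 3.93% had such an odds ratio with Ccl24, 2.02% with Npl and 2.78% with Acp5 in the draw, and 1.69% with Ccl24 in the average. With Ccl24, 5 of the 8 other members were over 1 in both libraries in the draw (all genes 34.3%) and in the average (all genes 35.1%). These figures restate what the genes were chosen for and show nothing by themselves.

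Of the 21 pairs among Ccl24, Npl, Acp5, Olfml3, H2-M2, Htra1 and Cela1, 20 had an averaged odds ratio over 1 in both libraries and in both WT lanes. The median was 2.43 in WT (range 1.61 to 3.58) and 1.61 in CCR2-/- (range 0.85 to 2.47). The exception was Ccl24 with Htra1, at 1.96 in WT and 0.85 in CCR2-/-. In the average, all 14 pairs of Ccl6 or Ccl9 with one of these 7 genes were under 1 in both libraries, with a median of 0.37 in each, and 13 of them were also under 1 in both lanes. The pair that was not was Ccl9 with Cela1, at 0.51 in lane 1 and 1.25 in lane 2, and in the single draw it was at 1.09 in CCR2-/-. Single draws varied: the count of 20 was also found in the draw reported, and was 17 with another seed. In the draw reported, H2-M2 with Htra1 in CCR2-/- was over 1 (1.14) only through the 0.5 added to each field of the 2 by 2 table. There Htra1 was in 1.205% of cells with H2-M2 and in 1.289% of those without. In the average, Ccl6 with Ccl9 had the highest odds ratio of the 36 pairs in each library, 4.40 in WT and 3.24 in CCR2-/-. In the draw reported it was at 5.03 in WT, where Ccl24 with Htra1 was at 5.06.

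**Figure D2:**
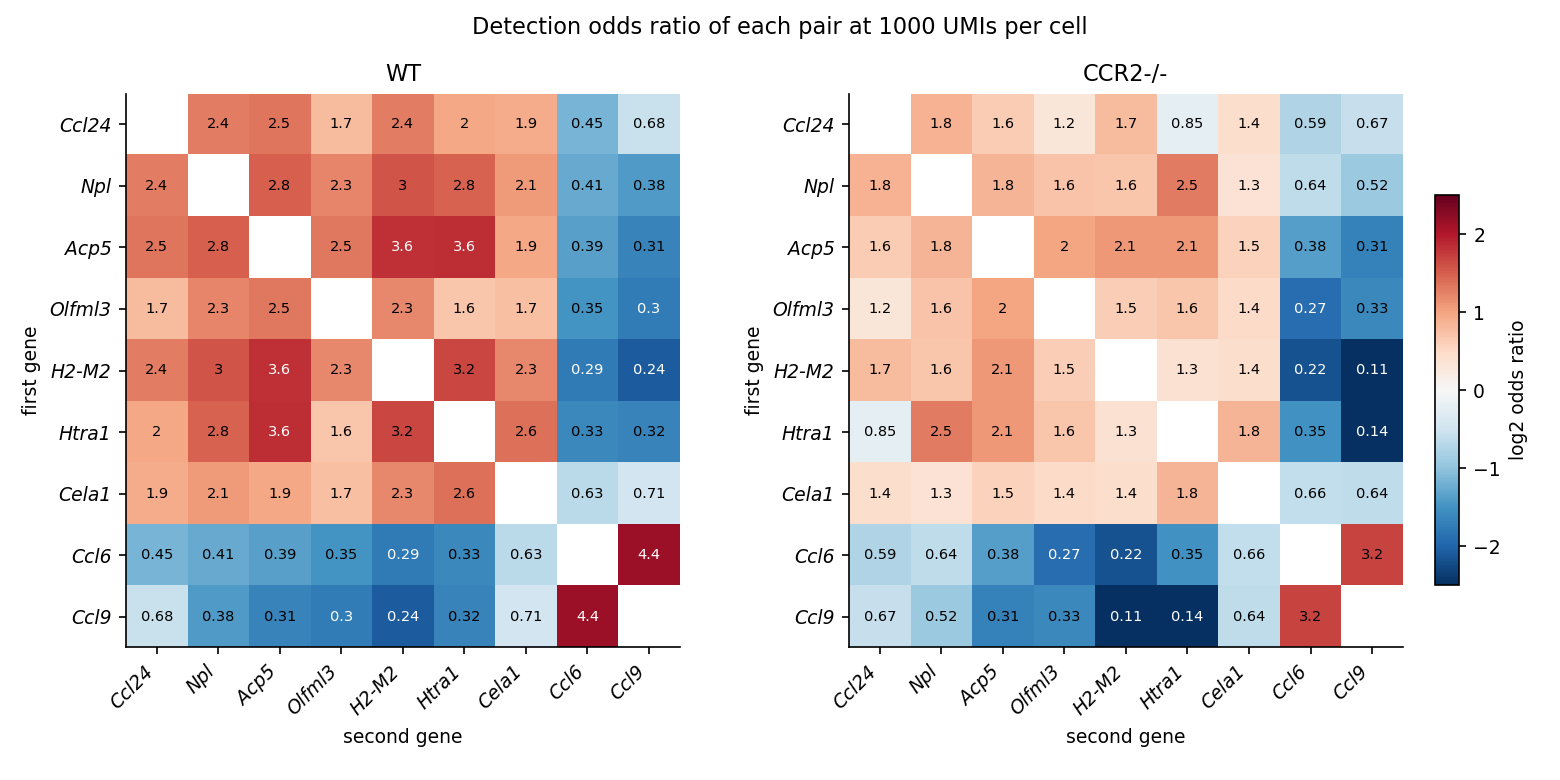
Odds ratio of detection for each pair of the 9 genes at 1000 UMIs per cell, averaged over all thinnings, in WT (left) and CCR2-/- (right). Colour is the log2 odds ratio and the number in each square is the odds ratio. The upper left block of 7 genes is above 1 except Ccl24 with Htra1 in CCR2-/-, and the rows of Ccl6 and Ccl9 are below 1 except with each other.

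Ccl24 and Npl show the size of the link. Of the 181 WT cells with a Ccl24 UMI, 47 (25.97%, 19.75 to 32.99) also had an Npl UMI, against 420 of 2834 cells without Ccl24 (14.82%, 13.53 to 16.18). In CCR2-/- the shares were 46 of 201 (22.89%, 17.27 to 29.32) and 306 of 2215 (13.81%, 12.40 to 15.32). The ratio of the shares was 1.75 in WT and 1.66 in CCR2-/- in this draw, and 2.03 and 1.63 when averaged over all thinnings. The first draw, made with 1 random stream per library and replaced after it was seen, gave ratios of 2.07 in WT and 1.32 in CCR2-/-, and another seed gave 1.92 and 1.51. Most cells with Ccl24 still had no Npl UMI at this depth.

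Acp5 was likewise more frequent in cells with Ccl24. In WT it was found in 115 of 181 cells with Ccl24 (63.54%, 56.07 to 70.55) and in 37.47% (35.69 to 39.29) of the others. In CCR2-/- the shares were 95 of 201 (47.26%, 40.20 to 54.41) and 33.41% (31.44 to 35.42). The share also differed with the number of Ccl24 UMIs, from 37.47% of WT cells with 0 to 60.0% with 1 and 69.01% with 2 or more (intervals of the last pair 50.22 to 69.22 and 56.92 to 79.46, which overlap). In CCR2-/- it was 33.41%, 42.96% (34.48 to 51.76) and 56.06% (43.3 to 68.26), and the intervals of the last pair again overlap. Ccl6 ran the other way, at 23.68%, 13.64% and 1.41% in WT, where the last share was 1 of 71 cells. In CCR2-/- Ccl6 was in 17.07% (15.52 to 18.7) of cells with 0 Ccl24 UMIs and 15.56% (9.9 to 22.79) of cells with 1, intervals that overlap. With 2 or more the share was 4.55% (3 of 66, 0.95 to 12.71).

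No thinned cell held more than 5 of the 9 genes. A UMI of each of Ccl24, Npl and Acp5 was present in 33 of 3015 thinned WT cells (1.09%), made up of 15 of 2109 in lane 1 and 18 of 906 in lane 2, and in 21 of 2416 CCR2-/- cells (0.87%). Cells with 4 or more of the 9 genes made up 1.72% of WT and 0.99% of CCR2-/- cells, with at most 5 in a WT cell and 4 in a CCR2-/- cell. None of the 9 was seen in 32.7% and 34.7% of cells.

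Cells with Ccl24 were compared with the remaining cells for markers of other types, in the thinned data. The 10 macrophage markers summed to 20768 CPM in WT cells with Ccl24 and 21867 CPM in those without, and to 14751 and 14532 CPM in CCR2-/-. The 10 eosinophil and mast cell markers, which include Ccr3, had 2 UMIs in all WT cells with Ccl24 and 5 in all CCR2-/- cells with Ccl24. As CPM they were higher in cells with Ccl24, at 11.05 against 6.35 in WT and 24.88 against 11.74 in CCR2-/-. So few UMIs do not allow a comparison. The 6 monocyte markers were lower in cells with Ccl24, at 270.7 against 637.6 CPM in WT and 34.8 against 111.1 CPM in CCR2-/-. The 8 B or plasma cell markers found were also lower, at 232 against 1340 CPM in WT and 248.8 against 1367 CPM in CCR2-/-, and the part of free RNA in this was not tested.

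Overlap with Ccr2 divided the set in the same way as the pairs. In the WT library 2 of the 9 genes, Ccl6 and Ccl9, had an odds ratio over 1 with Ccr2, in the draw and in the average, against 45.6% and 40.5% of all genes. In cells with Ccr2, averaged over thinnings, Ccl6 was in 37.64% against 19.81% of the rest (odds ratio 2.44) and Ccl9 in 10.95% against 4.73% (2.47). The 7 others were all rarer in cells with Ccr2. The odds ratio was 0.15 for H2-M2 (0.67% of cells with Ccr2 and 4.42% of the rest), 0.17 for Htra1, 0.30 for Npl, 0.32 for Cela1, 0.33 for Acp5, 0.34 for Olfml3 and 0.38 for Ccl24. Each gene kept its side of 1 in both lanes. Of the 181 thinned WT cells with Ccl24, 15 (8.29%) had a Ccr2 UMI. The overlap was not read in CCR2-/-, where 14 thinned cells had a Ccr2 UMI.

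Timd4 divided the set the opposite way from Ccr2. Its own level was 34.2 CPM in each WT lane and 162.1 CPM in CCR2-/-. In the draw 5 of the 9 genes had an odds ratio over 1 with Timd4 in both libraries, against 34.2% of all genes, and in the average 6 did, against 36.1%. In WT the averaged odds ratios with Timd4 were 2.91 for H2-M2, 2.20 for Cela1, 1.90 for Npl, 1.86 for Acp5, 1.79 for Ccl24, 1.77 for Olfml3 and 1.13 for Htra1. In CCR2-/- they were 1.42 for Npl, 1.4 for Acp5, 1.27 for Olfml3, 1.23 for Ccl24, 1.20 for Cela1, 1.06 for H2-M2 and 0.92 for Htra1. Ccl6 and Ccl9 were under 1 in both libraries, at 0.54 and 0.56 in WT and 0.80 and 0.95 in CCR2-/-. Most cells with Ccl24 had no Timd4 UMI: 10 of 181 WT cells (5.52%) and 38 of 201 CCR2-/- cells (18.9%) had both.

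Thbs1, which encodes the matrix glycoprotein thrombospondin-1, was at 125.2 CPM in lane 1, 96.3 CPM in lane 2 and 401.4 CPM in CCR2-/-. In the draw and in the average, 7 of the 9 genes had an odds ratio over 1 with Thbs1 in both libraries (all genes 33.8% and 38.4%). In the draw, Olfml3 in WT was over 1 (1.01) only through the 0.5 added to each field of the 2 by 2 table. There Thbs1 was in 10.78% of cells with Olfml3 and in 10.89% of those without. The averaged values were 2.45 in WT and 1.55 in CCR2-/- for Ccl24, 2.22 and 2.19 for H2-M2, and 1.65 and 2 for Acp5. Npl was at 1.57 and 1.51, Olfml3 at 1.31 and 1.64, Htra1 at 1.94 and 1.51, and Cela1 at 1.54 and 1.17. Ccl6 (0.57 and 0.42) and Ccl9 (0.53 and 0.40) were again under 1. Of cells with Ccl24, 40 of 181 in WT (22.1%) and 62 of 201 in CCR2-/- (30.8%) had a Thbs1 UMI, against 10.16% and 26.86% of cells without Ccl24. The intervals were separate in WT (16.28 to 28.85 and 9.07 to 11.33) and overlapped in CCR2-/- (24.54 to 37.73 and 25.03 to 28.76). None of Timd4, Ccr2 and Thbs1 was seen in 67.4% and 56.7% of cells with Ccl24 and in 66.8% and 62.1% of cells without it.

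**Figure D3:**
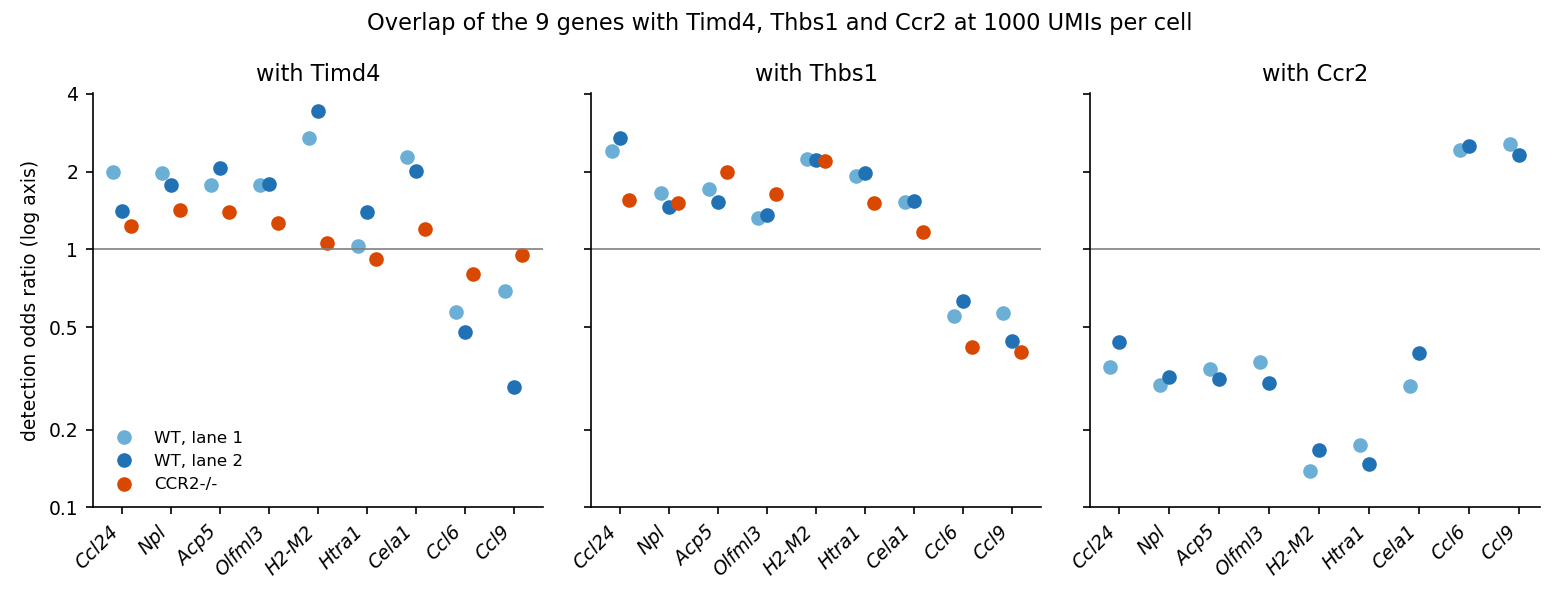
Averaged odds ratio of detection (log axis) of each of the 9 genes with Timd4, Thbs1 and Ccr2 at 1000 UMIs per cell, in WT lane 1, WT lane 2 and CCR2-/- (not drawn for Ccr2). Points above the line at 1 mean that the genes were found together more often. Ccl6 and Ccl9 lie below 1 with Timd4 and Thbs1 and above 1 with Ccr2, and the other 7 lie opposite, apart from Htra1 with Timd4 in CCR2-/- at 0.92.

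Because Ccr2 detection divided the set, levels were recomputed in cells with no UMI of Ccr2 or of Plac8, a gene of monocytes. This kept 1378 WT cells and 2368 CCR2-/- cells, with median depths of 4953.5 and 2373 UMIs, and a deep cell is more likely than a shallow one to be left out. It left out 1638 WT cells and 244 CCR2-/- cells. Since Ccr2 is the gene disrupted in CCR2-/-, it could mark cells in WT only, so the filter did not select like cells in the libraries, and its effect on the ratios cannot be told apart from that of genotype. In these cells Ccl6 was at 225.4 CPM (214.9 to 236.2) in WT and 225.9 CPM (214.4 to 237.9) in CCR2-/-, and Ccl9 at 47.0 CPM (42.3 to 52.2) and 45.5 CPM (40.4 to 51.0). Their log2 ratios were 0.004 and -0.05, against -0.66 and -0.78 over all cells. Cela1 was likewise level, at 55.7 and 56.0 CPM. Ccl24 was at 138.7 CPM (130.5 to 147.3) in WT and 155.8 CPM (146.2 to 165.8) in CCR2-/-, a log2 ratio of 0.17, and H2-M2 at 71.2 and 93.8 CPM, a ratio of 0.39.

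Npl, Acp5, Olfml3 and Htra1 were lower in CCR2-/- in this subset of cells. Npl was at 275.9 CPM (264.3 to 288.0) in WT and 160.3 CPM (150.6 to 170.5) in CCR2-/-, with a log2 ratio of -0.78. Acp5 was at 903.9 CPM (882.8 to 925.5) and 528.4 CPM (510.7 to 546.6), with a ratio of -0.77. For Olfml3 (111.8 and 71.7 CPM) the ratio was -0.63, and for Htra1 (18.25 and 11.96 CPM) it was -0.57. The ratios in this subset thus describe cells picked differently in each library. In the same subset 20 of the 21 pairs of the 7 genes were over 1 in both libraries (median 1.90 in WT and 1.58 in CCR2-/-), 13 of the 14 pairs with Ccl6 or Ccl9 were under 1 in both, and Ccl6 with Ccl9 was at 5.08 and 3.09.

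**Figure D4:**
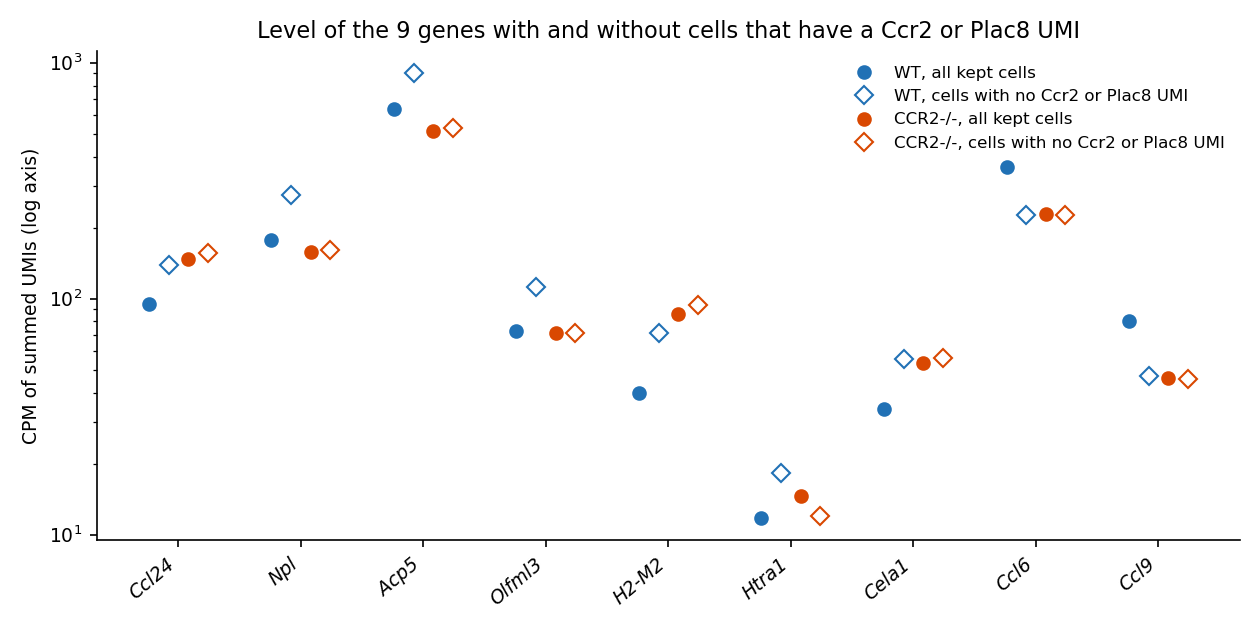
Level of the 9 genes as CPM of summed UMIs (log axis) in all kept cells (filled circles) and in cells with no Ccr2 or Plac8 UMI (open diamonds), in WT and CCR2-/-. In WT the 7 genes from Ccl24 to Cela1 are higher in the subset and Ccl6 and Ccl9 are lower. The diamonds of Ccl6, Ccl9 and Cela1 are level between the libraries, and those of Npl, Acp5 and Olfml3 are lower in CCR2-/-.

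Ccl6 (chr11:83587882-83593087) and Ccl9 (chr11:83572919-83578636) lie in tandem on the minus strand (GRCm38, GENCODE M21), with 9245 bases and no annotated gene between them. The opposite-strand gene E230016K23Rik overlaps Ccl6, and whether the counting used strand is not given in the sources used here. The 250 bases before each start (RefSeq, GRCm38.p6) are shown because this pair had the highest averaged odds ratio. Capitals mark runs of at least 10 bases that occur in both stretches. The marked stretch in Ccl9 is made of 2 shared runs that overlap there and lie apart in Ccl6, so it does not occur whole in Ccl6.
Ccl6 (chr11:83593088-83593337, minus strand): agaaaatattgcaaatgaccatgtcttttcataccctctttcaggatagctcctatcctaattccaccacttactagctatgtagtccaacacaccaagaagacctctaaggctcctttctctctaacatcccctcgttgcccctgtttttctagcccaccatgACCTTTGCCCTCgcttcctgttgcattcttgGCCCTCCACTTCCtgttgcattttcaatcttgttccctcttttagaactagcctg
Ccl9 (chr11:83578637-83578886, minus strand): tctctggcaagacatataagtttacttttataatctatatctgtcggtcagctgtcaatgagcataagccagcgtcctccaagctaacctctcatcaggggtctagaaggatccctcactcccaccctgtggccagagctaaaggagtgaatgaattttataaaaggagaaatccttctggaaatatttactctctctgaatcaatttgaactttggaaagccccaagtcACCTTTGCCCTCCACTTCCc
The longest shared run was 13 bases. In Ccl9 it ended 1 base before the end of the stretch, next to the start, whereas in Ccl6 the shared runs lay farther from the start. The best local alignment of the stretches covered 17 columns with 16 identical bases.

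The remaining members are on separate chromosomes, all as protein-coding genes in GRCm38: Ccl24 at chr5:135569937-135573049, Npl at chr1:153503015-153550045, Olfml3 at chr3:103722222-103738001, H2-M2 at chr17:37480851-37483552 and Cela1 at chr15:100674421-100687921, all on the minus strand. Htra1 is on the plus strand at chr7:130936111-130985660, and the opposite-strand gene Fgfr2 overlaps it.

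Genes with a pattern across cells most like those of Ccl24, Npl and Acp5 were ranked by the smaller of the 2 libraries' Pearson correlations, over 3015 WT and 2416 CCR2-/- thinned cells. The correlations were weak, as counts this sparse allow, and cells of a library share its preparation, so the ranks only name neighbours. For Ccl24 the 10 leading genes were Tnfaip2 (r = 0.13 in WT and 0.13 in CCR2-/-), Wnt4 (0.14 and 0.10), Acp5 (0.13 and 0.10), Tspan13, Psap, Mmp9, Ocstamp, Msr1, Bhlhe40 and Csf1r. Npl was at rank 18 for Ccl24. Among the genes least like Ccl24 were Rps18 (-0.10 and -0.08), which encodes a ribosomal protein, and Tmem176a (-0.09 and -0.07), which encodes a membrane protein.

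For Npl the leading genes were Adamdec1 (0.23 and 0.15), a secreted metalloprotease of gut macrophages, Psap (0.14 and 0.19), the saposin precursor, Lgmn (0.13 and 0.14), a lysosomal protease, and then Svbp, Ctss, Amica1, Tspan13, Csf1r, Acp5 and Pla2g7. For Acp5 they were Dnase1l3 (0.27 and 0.26), a secreted nuclease, Adamdec1 (0.24 and 0.27), Tspan13 (0.24 and 0.21), Rgs1, Psap, Amica1, Apol7c, Pla2g7, Cd9 and Svbp. Psap and Tspan13 were among the 10 for all of Ccl24, Npl and Acp5. Of the 19 neighbours that were not members, 16 were higher in CCR2-/- and 3, Ctss, Apol7c and Pla2g7, were lower, with no limit on the size. Amica1 (log2 ratio 0.03) and Pla2g7 (-0.03) were close to 0. Most of the 7401 genes with a mean of at least 10 CPM were also higher: their median was 0.18, and 36.2% lay under the -0.02 of Olfml3. Adamdec1 was at 341.1 CPM in WT and 1057 in CCR2-/-, Dnase1l3 at 642.5 and 962.8, Amica1 at 570.9 and 581.1, and Apol7c at 1358 and 738.7.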

How the data were processed

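The authors deposited raw UMI counts, as whole numbers, for every gene in each cell, with no normalization. Per the submitters' processing notes, Cell Ranger 3.0.1 and the build mm10 were used. Annotation and cell calling are not given in the sources used here. Each file holds 1 library, and the barcode suffix gives the WT lane. Totals were 20766579 UMIs in 3054 WT cells and 7506405 UMIs in 2774 CCR2-/- cells.

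The 9 genes and the gene lists were chosen with earlier results of these data known. The cell filter asked for 200 genes or more and left out cells over 10% mitochondrial UMIs. UMIs were summed per library and lane, scaled to CPM, and compared as log2 ratios with a pseudocount of 1 CPM. With 1 library per genotype no p-value was computed. For co-detection each cell was thinned to 1000 UMIs, and 0.5 was added to each field of the 2 by 2 table of single draws. Averages over all thinnings were computed from the hypergeometric distribution with nothing added. The draw was first made with 1 random stream per library. It was changed to a seed per cell, and the average was added, after the first draw had been seen. The addition of 0.5 was dropped from the average after its effect on Htra1 pairs had been seen. The first draw is among the alternatives. Background shares used genes with a mean of at least 10 CPM, or seen in at least 2% of thinned cells of each library.

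A lymphoid or stromal cell had UMIs of at least 3 markers of that type and no UMI of Csf1r or Adgre1. It also had under 3 markers of the other of these types or of epithelium. The macrophage gate asked for at least 5 of 10 macrophage markers and under 3 markers of every other listed type apart from monocytes. Of the T cell and B cell lists, 8 of 10 symbols each were found. Doublets were kept: Scrublet's (scanpy 1.11.5) threshold marked 0, 6 and 6 cells of the 3 lanes, too few to be of use, so an alternative removed the highest scores. Named genes were the 9 genes, Timd4, Ccr2 and Thbs1, the 10 most alike and 5 least alike genes by the rule given (some of the least alike are not reported here), and the 3 of each list with the largest absolute log2 ratio. The scripts were tested on simulated data. Python 3.11.15, numpy 2.4.6 and scipy 1.17.1 were used. Promoter stretches were taken from RefSeq (GRCm38.p6), where 8 of the 9 genes had an entry.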

Additional observations from a re-analysis of the deposited data

Results flagged for a closer look

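Among the pairs of the 9 genes and the pairs of these genes with Timd4 or Thbs1, Htra1 stood out because both WT lanes lay on one side of 1 and CCR2-/- on the other. Ccl24 with Htra1 had an averaged odds ratio of 2.23 in lane 1, 1.42 in lane 2 and 0.848 in CCR2-/-. Within the macrophage marker gate it had 2.21 in WT and 0.981 in CCR2-/-, and 8 Htra1 UMIs of CCR2-/- were in stromal-marker cells. Htra1 with Timd4 had 1.03, 1.39 and 0.919. In the single draw Ccl24 and Htra1 were found together in 9 of the 181 WT cells with Ccl24 and in 1 of 201 CCR2-/- cells. Htra1 was in 1.29% of thinned WT and 1.28% of thinned CCR2-/- cells, and the differences were not tested.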

How the results depend on the processing

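No paired analysis was possible because each genotype had 1 library. Leaving out a replicate was not possible for the same reason. The log2 ratio of Ccl24 was above 0 under every alternative run. It was 0.16 when only cells of 2000 to 4000 UMIs were used, 0.44 after median-of-ratios scaling, 0.17 without cells with a Ccr2 or Plac8 UMI, 0.77 in the macrophage gate, 0.76 against lane 1 and 0.36 against lane 2. The count of genes higher by 2-fold was 3 at a limit of 1.5-fold, and 0 with a pseudocount of 10 CPM, median-of-ratios scaling, only cells of 2000 to 4000 UMIs, cells without Ccr2 or Plac8, or lane 2 only. The count lower was 2 at 1.5-fold. The log2 ratio of Ccl6 changed sign without cells with a Ccr2 or Plac8 UMI, to 0.004. Olfml3 ranged from -0.63 to 0.77 and Htra1 from -0.57 to 0.40, on both sides of 0, and the 6 others kept their sign. Their values nearest 0 were 0.162 for Ccl24, 0.305 for H2-M2, 0.009 for Cela1, -0.023 for Npl, -0.045 for Acp5 and -0.048 for Ccl9. The ratio of Npl shares in WT was 2.44 at 500 UMIs and 2.73 at 2 or more UMIs, and in CCR2-/- it was 0.807 in the first draw at 500 UMIs. In that thinning 4 genes were over 1 with Thbs1 in both libraries. With at least 2 UMIs, 25 pairs were past 1.5 and 4 genes were over 1 with Ccr2. In WT, 0 thinned cells held 2 or more UMIs of Htra1. Its WT odds ratios at that threshold were over 1 only through the 0.5 added to each field of the table. These counts thus depend in part on the added 0.5 and cannot show more overlap than in the draw reported. Of the 21 pairs of the 7 genes, 20 were over 1 in both libraries in the draw reported, against 17 with another seed, 17 in the first draw, 16 at 500 UMIs and 15 in the first draw at 500 UMIs. Of the 14 pairs with Ccl6 or Ccl9, 1 was over 1 in a library in the draw reported, 2 at 500 UMIs, 4 in the first draw at 500 UMIs and 7 with at least 2 UMIs. The 7 include Htra1 with Ccl6 and with Ccl9, which in WT were over 1 only through the added 0.5. The count of 7 therefore cannot be set against those of the other settings. The first draw at 1000 UMIs, replaced after it was seen, gave 11 pairs past 1.5 where the draw reported gave 15. The draws by 1 random stream and the averages over all thinnings were added after seeing the data. Apart from the effect of the added 0.5 on the WT pairs of Htra1, the cause of these changes was not tested. Depth limits the pairs of Htra1 most, which had a UMI in 39 WT and 31 CCR2-/- cells at 1000 UMIs.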
